A study of Mus musculus with 6 samples.

Results

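Annexins are cytosolic proteins that bind negatively charged membrane phospholipids when calcium rises, through a conserved core of repeated domains, and each member differs mainly in its N-terminal tail, where partners such as S100 proteins dock. They are known for work in membrane repair, vesicle traffic and the link between membranes and the cytoskeleton. In liver, *Anxa2* is scarce in healthy hepatocytes and abundant in biliary cells and in hepatocellular carcinoma. The annexins described here are 10 of the 20856 genes with values in the deposited expression table, namely *Anxa1* to *Anxa8*, *Anxa10* and *Anxa11*. The family was chosen by the RPKM of *Anxa8*, which was higher in the *Mll3*-targeted lines of these same data, so the difference of *Anxa8* between genotypes is described without a test. The other 9 members were taken by family name. *Anxa9* and *Anxa13*, which are also listed, are given after the report.

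RNA was measured by RNA-seq in 6 liver tumor cell lines from C57BL/6 mice. Adult female mice had received a *Myc* transposon and a pX330 plasmid with Cas9 and a guide RNA by hydrodynamic tail vein injection, and tumor cells were grown on collagen-coated plates until no fibroblasts were seen. The genotype Myc;sgp53/Cas9 (sgp53 lines, guide against *Trp53*) and the genotype Myc;sgMll3/Cas9 (sgMll3 lines, guide against *Kmt2c*, which encodes the histone methyltransferase MLL3) had 3 lines each and received no treatment. All 6 lines carry the *Myc* transposon and were edited, so neither genotype has both targeted genes intact and no line with *Myc* alone was compared. The study's methods state that the lines of a genotype are independent and derived from different mice. The labels of sgMll3 replicates 2 and 3, 2A and 2T1, share a number whose meaning is not given. Because RNA came from whole cultures, fewer cells of a kind and less RNA per cell cannot be told apart.

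Reads counted on genes ranged from 5312182 to 6878625 in the sgp53 lines and from 3680068 to 4704539 in the sgMll3 lines. Levels are given as RPKM, the reads of a gene scaled by its transcript length and by the reads counted in the library. *Trp53* RNA was 17.2, 17.6 and 19.4 RPKM in the sgp53 lines and 92.2, 124 and 121 RPKM in the sgMll3 lines (adjusted p = 0.0140 from limma), and *Kmt2c* RNA overlapped between genotypes at 18.4 to 24.2 against 9.51 to 25.0 RPKM. A frameshift from Cas9 need not lower the RNA of its gene, so the *Kmt2c* level is no check of its editing. Marker levels differed widely between lines, and sgMll3 replicate 1 stood furthest apart for hepatocyte markers. The summed level of 8 hepatocyte markers was 5686 RPKM in sgMll3 replicate 1 and 2.75 to 306 RPKM in the other lines. *Apob* and *Hnf4a* carried most of that sum, and the transcript lengths listed for them (1118 and 431 bases) are 12.5 and 10.1 times shorter than their longest coding transcripts in GENCODE vM1, which raises their levels in every line. The other 6 hepatocyte markers summed to 115 RPKM in sgMll3 replicate 1 and 1.88 to 9.76 RPKM elsewhere, and each of the 8 was highest in that line. The sum of 10 fibroblast and stellate markers was 0.282 RPKM there and 18.7 to 996 RPKM elsewhere, highest in sgp53 replicate 2. In sgp53 replicate 2 the sum of 8 biliary and progenitor markers was the lowest, at 115 RPKM against 322 to 7386 RPKM elsewhere. Defining markers did not bear out a mature liver cell in every line, since *Alb*, which encodes albumin, was between 0.644 and 4.36 RPKM throughout.

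The region around the start site of *Anxa8* is shown first because this gene separated the genotypes, and that of *Anxa5* because its lines also did not overlap. The regions of *Anxa2* and *Anxa10* follow as the only members among the 8 with a given promoter that hold the AP-1 letters. Each runs 5′ to 3′ on the strand of the gene from 250 bases before to 50 bases after the RefSeq start site in GRCm38.p6, with the *Anxa8* region at chr14:34085729-34086028 (plus strand), *Anxa5* at chr3:36475838-36476137 (minus strand), *Anxa2* at chr9:69453433-69453732 (plus strand) and *Anxa10* at chr8:62123144-62123443 (minus strand). Capitals mark matches on either strand to 4 short motifs, and no matches overlapped here. The letters searched for AP-1, the Fos and Jun factors, were TGANTCA. For the E-box, which Myc and its partner Max can bind, they were CACGTG. For the TATA box of core promoters they were TATAAA, and for the GC box of Sp factors they were GGGCGG.
Anxa8: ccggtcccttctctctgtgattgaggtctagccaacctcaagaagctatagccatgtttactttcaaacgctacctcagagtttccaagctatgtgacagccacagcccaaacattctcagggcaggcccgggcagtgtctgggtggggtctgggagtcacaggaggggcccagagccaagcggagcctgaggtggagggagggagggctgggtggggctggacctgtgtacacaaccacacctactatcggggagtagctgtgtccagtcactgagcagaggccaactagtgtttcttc
Anxa5: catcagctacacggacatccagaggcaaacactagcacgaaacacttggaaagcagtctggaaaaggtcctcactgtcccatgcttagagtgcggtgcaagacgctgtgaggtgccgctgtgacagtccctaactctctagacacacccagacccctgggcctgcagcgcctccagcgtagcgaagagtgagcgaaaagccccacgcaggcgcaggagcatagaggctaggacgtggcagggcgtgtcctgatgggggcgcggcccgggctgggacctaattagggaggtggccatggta
Anxa2: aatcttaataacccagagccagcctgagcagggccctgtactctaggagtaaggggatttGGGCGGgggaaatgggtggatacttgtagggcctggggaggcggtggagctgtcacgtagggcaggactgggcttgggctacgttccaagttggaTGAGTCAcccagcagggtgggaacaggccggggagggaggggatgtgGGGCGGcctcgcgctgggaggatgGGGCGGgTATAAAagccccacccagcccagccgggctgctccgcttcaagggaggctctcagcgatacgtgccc
Anxa10: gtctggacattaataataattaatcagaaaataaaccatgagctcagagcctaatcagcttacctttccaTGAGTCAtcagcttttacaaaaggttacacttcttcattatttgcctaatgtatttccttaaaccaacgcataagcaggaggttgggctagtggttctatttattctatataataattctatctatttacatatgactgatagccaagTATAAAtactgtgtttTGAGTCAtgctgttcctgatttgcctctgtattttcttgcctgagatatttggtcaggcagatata

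The 300 bases of *Anxa8* and of *Anxa5* held none of these 4 motifs, although *Anxa8* had a GC content of 57.3% against a median of 52.7% over all promoters. In *Anxa2* the AP-1 letters began 95 bases before the start site and the TATA box 17 bases before it. *Anxa10*, with a GC content of 34.3%, held 2 AP-1 matches and a TATA box 32 bases before its start. Over the 8 members with a promoter, AP-1 letters were found in 2, an E-box in 1 (*Anxa7*), a TATA box in 3 and a GC box in 4. These members have 10 promoters, since *Anxa4* and *Anxa7* have 2 start sites each. A member was counted if any of its promoters matched, whereas the shares that follow are per promoter. Among all 32851 promoters of this length, 7.81% held the AP-1 letters, 7.15% the E-box, 13.6% the TATA box and 35.7% the GC box. A match describes the letters in this window and is not evidence of binding. *Anxa3* and *Anxa6* are not shown.

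*Anxa8*, an annexin of squamous and other epithelia that is linked to late endosomes, stood 10-fold apart between genotypes. It was at 32.8, 31.8 and 46.7 RPKM in the sgp53 lines and at 453, 396 and 262 RPKM in the sgMll3 lines. Its lowest sgMll3 line lay far above its highest sgp53 line, and the order held in every line. The means were 37.1 ± 8.34 RPKM and 370 ± 98.2 RPKM (SD, n = 3 lines each), a ratio of 9.98 and a log2 fold change of 3.27 on the log2(RPKM + 1) scale. These are the values that chose the family. They rested on 376, 318 and 605 reads in the sgp53 lines and on 4011, 2745 and 2102 reads in the sgMll3 lines, so depth did not limit them. Leaving out sgMll3 replicate 1, the line with high hepatocyte markers, left a log2 fold change of 3.10. The summed hepatocyte markers were 2.75 RPKM in sgMll3 replicate 2, where *Anxa8* was at 396 RPKM. Since *Anxa8* was chosen by its values in these lines, this is a description only. The part of the hepatocyte markers in the *Anxa8* level was not tested.

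The gene lies at chr14:34085981-34100571 in GRCm38. Around it, 16 other listed genes lie within 500 kb, and 5 of them passed the filter on low values (3 or more lines at an RPKM of 1 or above). None of the 5 had lines that did not overlap, beside 16.2% of all genes tested. None had an unadjusted p under 0.05 (limma), beside 8.58%. With 5 genes these counts cannot be set apart from the shares. Their log2 fold changes ran from -0.67 to 0.81, with a lowest adjusted p of 0.752 (limma). *Glud1*, the neighbour at the upper end, encodes glutamate dehydrogenase and was at 107, 111 and 120 RPKM in the sgp53 lines against 718, 120 and 90.1 RPKM in the sgMll3 lines, so its high value came from sgMll3 replicate 1. The gene *A630023A22Rik* overlaps *Anxa8* and had 0 to 4 reads per line. Whether counting used the strand is not stated.

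**Figure D1:**
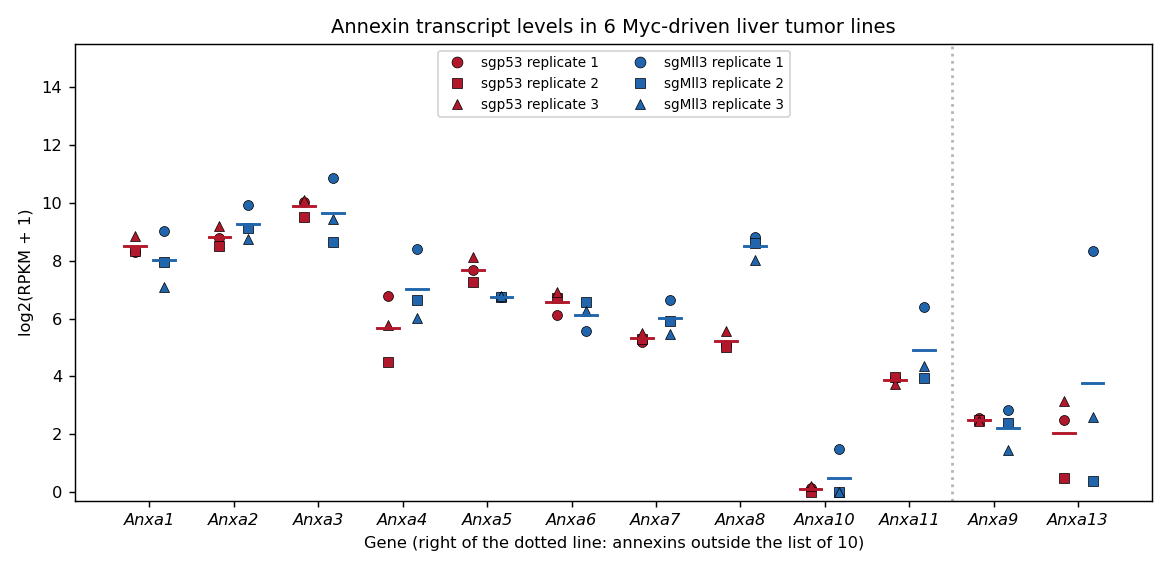
Levels of the 10 annexins, and of Anxa9 and Anxa13 to the right of the dotted line, in each of the 6 lines (vertical axis, log2(RPKM + 1)). Red symbols are sgp53 lines, blue symbols sgMll3 lines, the shape gives the replicate, and horizontal bars are means of 3 lines. The genotypes are apart for Anxa8 (sgMll3 above) and Anxa5 (sgMll3 below), while sgMll3 replicate 1 is the highest line for 8 of the 10 annexins. These 8 include Anxa8, which chose the family, and Anxa10, which was not tested.

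Among the other 9 members, 8 passed the filter on low values and none changed between genotypes at an adjusted p under 0.05, by limma or by limma voom on recovered reads. Over all 11617 genes tested, 15 passed that threshold with limma, which is 0.129% (0.0516% higher and 0.0775% lower in the sgMll3 lines), and 0.0344% passed it with voom. At an unadjusted p under 0.05 there was 1 of the 8, *Anxa5*, by either tool, beside 8.58% of all genes tested with limma and 8.21% with voom. The lines did not overlap for 1 of the 8, beside 16.2% of all genes. The count of annexins is too small to be set apart from these shares. Of the 8, 4 had a log2 fold change above 0 and 4 below, with a median of 0.10 against -0.09 over all genes tested, and adjusted p-values ran from 0.405 to 0.896.

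*Anxa5*, the protein known as a label of phosphatidylserine on dying cells, was lower in the sgMll3 lines by its values. It was at 205, 152 and 281 RPKM in the sgp53 lines and at 106, 106 and 110 RPKM in the sgMll3 lines, so the genotypes did not overlap. The sgMll3 lines were nearly equal, with the highest only 1.04 times the lowest. The means were 213 ± 64.8 and 108 ± 2.47 RPKM (SD, n = 3 lines each), a ratio of 0.506. The log2 fold change was -0.93 (95% confidence interval -1.53 to -0.34), with an unadjusted p of 0.00781 and an adjusted p of 0.405 from limma, so it did not pass over all genes. It was -0.92 without sgMll3 replicate 1. Immune markers also differed in level, with a sum over 8 genes of 21.9 to 58.7 RPKM in the sgp53 lines and 5.51 to 15.4 RPKM in the sgMll3 lines. Of these, *Ptprc*, the common leukocyte marker, was at most 0.0655 RPKM and *Cd3e* and *Cd79a* were at 0 in every line, while *Lyz2* and *Csf1r* made up much of the sum in the sgp53 lines. The part of this in the *Anxa5* values was not tested.

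*Anxa1* and *Anxa2* are the annexins with the closest S100 partners. *Anxa1*, a glucocorticoid-induced protein that damps inflammation through formyl peptide receptors, was at 319, 323 and 460 RPKM in the sgp53 lines and 520, 251 and 136 RPKM in the sgMll3 lines. The sgMll3 lines lay on both sides of the sgp53 lines, and the log2 fold change was -0.47 (95% confidence interval -1.61 to 0.67, adjusted p = 0.770 from limma). Without sgMll3 replicate 1 both remaining sgMll3 lines were below every sgp53 line, and the value was -0.97 (adjusted p = 0.476 from limma). *Anxa2*, which with S100A10 forms a membrane complex that binds plasminogen, was at 438, 363 and 586 RPKM against 976, 557 and 433 RPKM. Its range in the sgMll3 lines covered most of that in the sgp53 lines, with a log2 fold change of 0.44 (95% confidence interval -0.39 to 1.28, adjusted p = 0.722 from limma).

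*Anxa3* and *Anxa4* varied widely between lines of a genotype. *Anxa3*, a marker of liver progenitor and hepatocellular carcinoma cells, was listed at 1059, 733 and 1109 RPKM in the sgp53 lines and 1860, 398 and 696 RPKM in the sgMll3 lines. Its mean was marginally higher in the sgMll3 lines (985 ± 773 against 967 ± 204 RPKM, SD, n = 3 lines each), while the difference of log values had the other sign at -0.25 (95% confidence interval -1.56 to 1.07). *Anxa4*, an annexin of biliary and other secretory epithelia, was at 108, 21.9 and 53.6 RPKM against 336, 98.6 and 64.0 RPKM. Its highest line was 4.95 times the lowest among the sgp53 lines and 5.26 times among the sgMll3 lines, and its log2 fold change was 1.33 (95% confidence interval -0.49 to 3.16, adjusted p = 0.657 from limma). In both genotypes the *Anxa4* level was highest in replicate 1, the line with the highest sum of the 8 biliary and progenitor markers (1696 RPKM among sgp53 lines and 7386 RPKM among sgMll3 lines). The order was reversed between sgMll3 replicates 2 and 3, with sums of 322 and 926 RPKM and *Anxa4* at 98.6 and 64.0 RPKM. The part of these markers in the *Anxa4* level was not tested. The lowest *Anxa4* level was in sgp53 replicate 2, which had the lowest sum of these markers, and without it the log2 fold change was 0.75. That line was the lowest, or tied for it, for 4 of the 10 annexins, beside 16.7% of the genes tested. The 4 include *Anxa8*, which chose the family, and the untested *Anxa10*, which was at 0 in sgMll3 replicates 2 and 3 as well.

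*Anxa6*, the large annexin with a duplicated core, was at 68.5, 105 and 119 RPKM in the sgp53 lines and 47.0, 94.2 and 76.1 RPKM in the sgMll3 lines. The genotypes overlapped, and the log2 fold change was -0.44 (95% confidence interval -1.23 to 0.34, adjusted p = 0.718 from limma). *Anxa7*, also called synexin and known for membrane fusion, was steady in the sgp53 lines at 35.3, 38.6 and 44.2 RPKM and higher in sgMll3 replicates 1 and 2 than in any sgp53 line, at 98.1 and 59.1 RPKM. The remaining sgMll3 line, at 43.5 RPKM, fell within the sgp53 range, so the genotypes overlapped and the log2 fold change was 0.68 (95% confidence interval -0.07 to 1.42, adjusted p = 0.604 from limma).

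*Anxa11*, a member that joins RNA granules to lysosomes and binds penta-EF-hand proteins, was high in a single line. It was at 14.5, 14.8 and 12.2 RPKM in the sgp53 lines and at 83.2, 14.5 and 19.4 RPKM in the sgMll3 lines. The log2 fold change was 1.01 (95% confidence interval -0.46 to 2.48, adjusted p = 0.674 from limma) and 0.26 without sgMll3 replicate 1. *Anxa10*, an annexin of gastric epithelium, was not tested for lack of reads, with 1, 0 and 2 reads in the sgp53 lines and 15, 0 and 0 in the sgMll3 lines. Its highest level was 1.81 RPKM, in sgMll3 replicate 1.

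**Figure D2:**
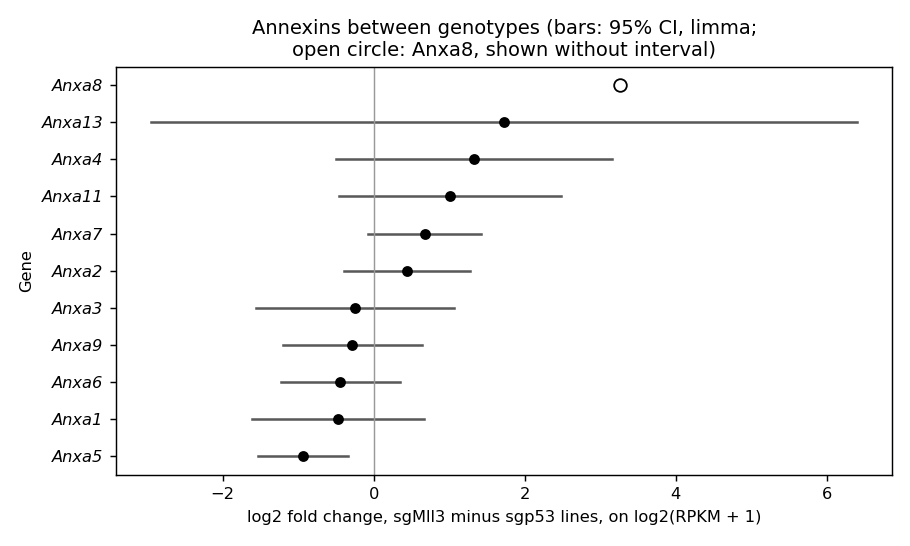
Log2 fold change of each tested annexin (horizontal axis, sgMll3 minus sgp53 lines on log2(RPKM + 1)), with bars for the 95% confidence interval from limma over 3 lines per genotype. Anxa8, which chose the family, is an open circle at 3.27 without interval, the interval of Anxa5 (-1.53 to -0.34) lies below 0, and those of the other annexins include 0.

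The line sgMll3 replicate 1 was the highest of the 6 for 8 of the 10 annexins, all but *Anxa5* and *Anxa6*, beside 23.6% of the genes tested. These 8 include *Anxa8*, which chose the family by its level in the sgMll3 lines, and *Anxa10*, which was not tested. The same line was the lowest for *Anxa6* (47.0 RPKM) and, at 106 RPKM and by a small margin, for *Anxa5*. It was the lowest line for 35.9% of the genes tested. Epithelial markers were also high in this line, with 8 of 8 hepatocyte markers and 6 of 8 biliary and progenitor markers at their highest there. The exceptions were *Spp1*, at 578 RPKM against up to 682 RPKM elsewhere, and *Sox9*, at 6.36 against up to 11.9 RPKM. *Apob*, which encodes the structural protein of liver lipoproteins, was at 4385 RPKM in this line and 0.243 to 129 RPKM in the others, the nuclear receptor gene *Hnf4a* was at 1186 against 0.629 to 170 RPKM, and *Cdh1*, for E-cadherin, at 191 against 0.306 to 9.86 RPKM. None of the genes in the hepatocyte, biliary, fibroblast, immune or endothelial lists passed an adjusted p of 0.05 between genotypes (limma and voom). Of 3 immune genes tested, 2, *Lyz2* and *Csf1r*, were lower in the sgMll3 lines at an unadjusted p under 0.05 (limma). The share over all genes tested was 5.34%. *Csf1r* passed the filter through the sgp53 lines alone. *Lyz2*, at 0, 0.214 and 12.4 RPKM in the sgMll3 lines, would not have passed it without the sgp53 lines. Without sgMll3 replicate 1, 3 of the 8 tested annexins had an unadjusted p under 0.05, beside 9.22% of genes in either direction and 5.35% lower in the sgMll3 lines. They were *Anxa1* (-0.97), *Anxa3* (log2 fold change -0.85, adjusted p = 0.516) and *Anxa5* (-0.92, adjusted p = 0.430, all from limma), each lower in the sgMll3 lines, and none passed after adjustment. *Anxa4* then had a log2 fold change of 0.64, *Anxa7* 0.36, *Anxa2* 0.12 and *Anxa6* -0.17. The part of the epithelial state of this line in the annexin levels was not tested.

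**Figure D3:**
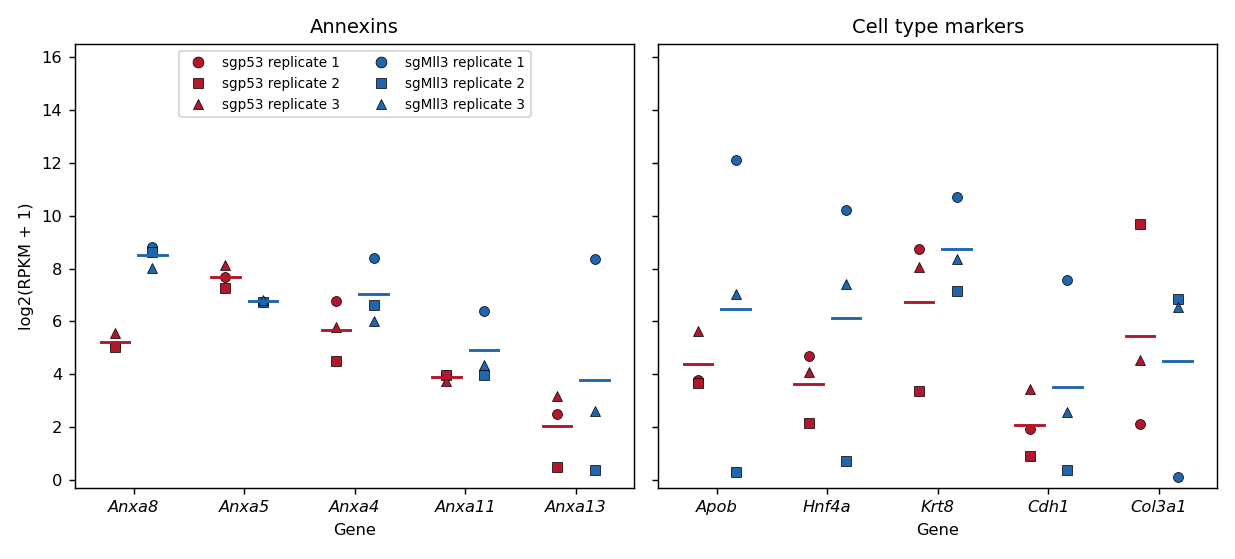
Selected annexins (left) and markers of hepatocytes (Apob, Hnf4a), epithelium (Krt8, Cdh1) and fibroblasts (Col3a1) (right) in each line, on log2(RPKM + 1), with red for sgp53 lines, blue for sgMll3 lines, shapes for replicates and bars for means of 3 lines. The sgMll3 replicate 1 circle is on top for Anxa4, Anxa11, Anxa13, Apob, Hnf4a, Krt8 and Cdh1, whereas Anxa8 is high in all 3 sgMll3 lines.

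Because RPKM divides by transcript length, levels of different annexins can be set side by side where the listed lengths hold. For *Anxa4* the listed length is 2030 bases against 2653 for its longest coding transcript in GENCODE vM1 (1.31 times). Its level was left as listed. *Anxa3* is the large exception. The transcript length listed for *Anxa3* is 376 bases, whereas its coding transcript in GENCODE vM1 has 1597, which is 4.25 times as long. This raises the deposited *Anxa3* level by that factor in all lines alike. On the longer transcript *Anxa3* was at 249, 173 and 261 RPKM in the sgp53 lines and 438, 93.6 and 164 RPKM in the sgMll3 lines. The listed length fell short by over 4 times for 5.85% of the 10859 tested genes that could be matched. This rescaling was chosen after the values were seen.

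With *Anxa3* on its longer transcript, *Anxa2* led in both genotypes, with 29.7% to 31.4% of the summed RPKM of the 10 annexins in the sgp53 lines and 31.9% to 33.4% in the sgMll3 lines. In the sgp53 lines the order by mean was *Anxa2*, *Anxa1*, *Anxa3*, *Anxa5*, *Anxa6*, *Anxa4*, *Anxa7*, *Anxa8*, *Anxa11* and *Anxa10*. The ranges of neighbours in that order overlapped except between *Anxa1* and *Anxa3*, *Anxa5* and *Anxa6*, *Anxa8* and *Anxa11*, and *Anxa11* and *Anxa10*. In the sgMll3 lines *Anxa2* was again first and *Anxa8* came next, followed by *Anxa1*, *Anxa3*, *Anxa4*, *Anxa5*, *Anxa6*, *Anxa7*, *Anxa11* and *Anxa10*. Here only *Anxa5* and *Anxa6*, and *Anxa11* and *Anxa10*, had ranges that did not overlap, while *Anxa8* was below *Anxa2* in 3 of 3 lines. The share of *Anxa8* in the sum was 2.23%, 2.60% and 2.50% in the sgp53 lines and 14.8%, 23.7% and 20.0% in the sgMll3 lines. On the deposited lengths it was 1.44%, 1.78% and 1.72% against 10.1%, 20.1% and 14.2%, and *Anxa8* ranked 3 by mean in the sgMll3 lines. The summed level itself overlapped between genotypes, at 1470, 1223 and 1865 RPKM against 3059, 1670 and 1308 RPKM.

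The annexins work through calcium-binding partners, membrane scaffolds and the plasminogen system, and 60 such genes were listed. Of these, 57 had values and 43 passed the filter, and none passed an adjusted p of 0.05 with limma or voom. At an unadjusted p under 0.05 there were 7 of the 43 with limma, 3 higher in the sgMll3 lines and 4 lower, beside 3.25% and 5.34% of all genes. The lines did not overlap for 6 genes with the sgMll3 lines above and for 5 with them below, beside 5.72% and 10.4% of all genes. Of those below, *Cpne1* rested on 3 to 8 reads per line and passed the filter only because of its sgp53 lines. The median log2 fold change of the 43 was -0.01.

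S100 proteins are small calcium sensors, several of which bind annexin tails. Of 11 tested, 6 had a log2 fold change above 0, beside 42% of all genes tested. The 2 with an unadjusted p under 0.05 (limma) were both below, beside 5.34% of all genes. *S100a10*, the partner of annexin A2, was at 354, 368 and 382 RPKM in the sgp53 lines and 290, 185 and 260 RPKM in the sgMll3 lines. *S100a11*, the partner of annexin A1, was at 438, 492 and 677 RPKM against 369, 333 and 336 RPKM. For both genes every sgMll3 line lay below every sgp53 line, as for 10.4% of all genes tested. Their log2 fold changes were -0.61 and -0.61 (adjusted p = 0.528 each, limma). *S100a6*, which binds annexins A2, A6 and A11, had the highest mean of the named S100 genes in both genotypes, at 1148 to 1718 RPKM in the sgp53 lines and 958 to 1664 RPKM in the sgMll3 lines (log2 fold change -0.22, adjusted p = 0.813, limma), although *S100a4* matched it in sgMll3 replicate 2. *S100a4*, a marker of motile and mesenchymal cells, was spread too far to compare, at 204, 731 and 200 RPKM against 82.2, 1108 and 158 RPKM (log2 fold change -0.35, adjusted p = 0.923, limma). *S100g*, a calcium buffer of epithelia, was at 147, 61.1 and 62.0 RPKM against 933, 210 and 111 RPKM (log2 fold change 1.75, adjusted p = 0.597, limma).

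Among the 5 tested genes of the annexin receptor and plasminogen list, *Plau*, which encodes the urokinase that activates plasminogen, had the lowest p. It was at 18.8, 26.2 and 41.3 RPKM in the sgp53 lines and 9.51, 10.9 and 3.39 RPKM in the sgMll3 lines, which did not overlap. Its log2 fold change was -1.79 (95% confidence interval -2.90 to -0.68, adjusted p = 0.388 from limma). The urokinase receptor gene *Plaur* was at 22.4, 8.89 and 37.4 RPKM against 157, 26.0 and 28.7 RPKM, with sgMll3 replicate 1 again the highest (log2 fold change 1.28, adjusted p = 0.679 from limma). *Plgrkt*, for a plasminogen receptor, differed by -0.33 on the log2 scale (adjusted p = 0.710, limma). Plasminogen itself (*Plg*) was at 0 in every line, and the formyl peptide receptor genes *Fpr1* and *Fpr2*, through which annexin A1 acts, were under 1 RPKM throughout.

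The scaffold genes followed no common direction, with 3 of 5 above 0, beside 42% of all genes tested. *Ahnak2*, a giant scaffold protein of the family that the annexin A2 complex holds at the membrane, was at 6.45, 10.2 and 8.93 RPKM in the sgp53 lines and 36.6, 67.2 and 14.8 RPKM in the sgMll3 lines, without overlap (log2 fold change 1.87, 95% confidence interval 0.62 to 3.12, adjusted p = 0.422 from limma). *Ahnak* and the membrane fusion gene *Myof* had log2 fold changes of 0.52 and 0.45 (adjusted p = 0.730 and 0.762, limma). In the membrane repair list, 5 of 13 tested genes had every sgMll3 line above every sgp53 line and none the reverse, beside 5.72% and 10.4% of all genes. By log2 fold change, 7 of the 13 were above 0 and 6 below, with a median of 0.09 against -0.09 over all genes tested. The lowest was *Cav1*, at -1.13 (adjusted p = 0.664, limma). The ESCRT gene *Chmp2a*, for a subunit that pinches off damaged membrane, was at 39.4, 34.7 and 38.4 RPKM against 54.9, 53 and 52.2 RPKM (log2 fold change 0.50, adjusted p = 0.491 from limma). The calpain genes *Capn1* and *Capns1*, for a calcium-activated protease and its small subunit, had log2 fold changes of 0.78 and 0.52 (adjusted p = 0.561 and 0.592, limma). *Capn2*, another calpain gene of the list, went the other way at -0.38 (adjusted p = 0.769, limma).

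The penta-EF-hand list holds calcium-binding proteins that dock on annexins A7 and A11. It gave no unadjusted p under 0.05 in 5 tested, beside 8.58% of all genes (limma). *Pdcd6*, for the protein ALG-2 that binds annexin A11, differed by 0.23 on the log2 scale (adjusted p = 0.733), *Sri*, for sorcin that binds annexin A7, 0.45 (adjusted p = 0.727), and *Pef1* -0.33 (adjusted p = 0.710, all limma). Copines, like annexins, bind phospholipids when calcium rises, but through C2 domains. They were below 0 in 4 of 4 tested genes, although *Cpne1* was at 0.012 with quantile normalization. *Cpne1* rested on 7, 7 and 8 reads in the sgp53 lines and on 4, 3 and 4 in the sgMll3 lines. It passed the filter on low values only because of its sgp53 lines, which favours its place in this count. Over all genes tested the median was -0.09 and 42% were above 0. *Cpne8* was at 19.7, 26.2 and 17.1 RPKM against 11.3, 15 and 12.2 RPKM (log2 fold change -0.65, adjusted p = 0.542 from limma). *Cpne1* and *Cpne3* had log2 fold changes of -0.26 and -0.31 (adjusted p = 0.770 and 0.777, limma).

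**Figure D4:**
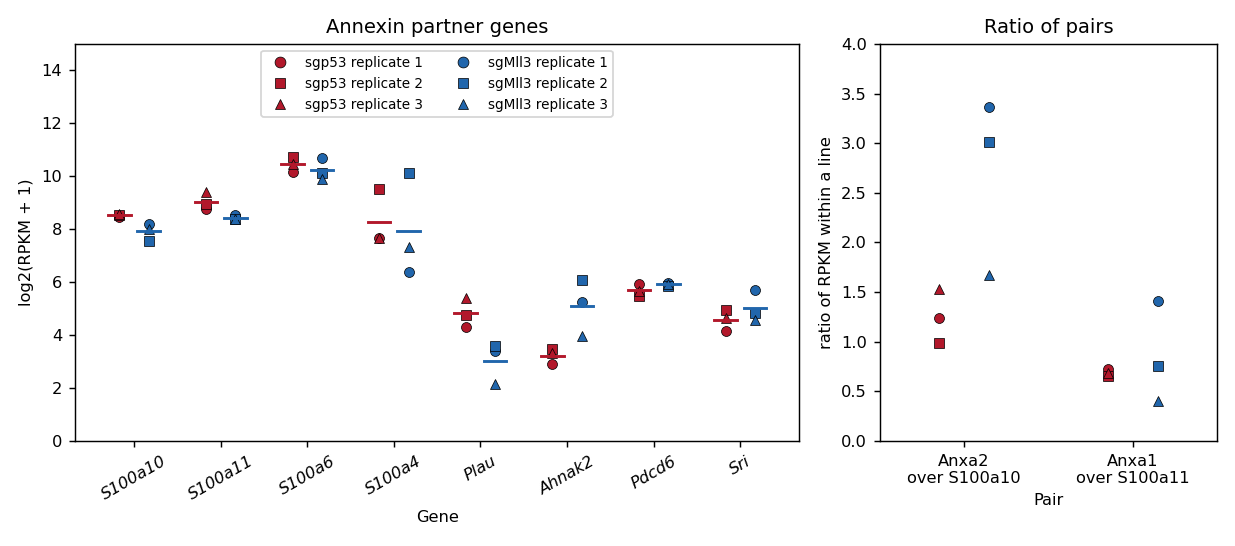
Annexin partner genes in each line on log2(RPKM + 1) (left), and the ratio of 2 annexins to their S100 partners within a line, in RPKM (right). Red is for sgp53 lines, blue for sgMll3 lines and shapes for replicates, and bars on the left are means of 3 lines. S100a10, S100a11 and Plau lie lower and Ahnak2 higher in all 3 sgMll3 lines, none past an adjusted p of 0.05, and the Anxa2 to S100a10 ratio is 0.988 to 1.53 in sgp53 lines and 1.67 to 3.36 in sgMll3 lines.

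The level of *Anxa2* relative to *S100a10* was computed within each line, a ratio chosen after the values were seen. It was 1.24, 0.988 and 1.53 in the sgp53 lines and 3.36, 3.01 and 1.67 in the sgMll3 lines. The genotypes did not overlap, with means of 1.25 ± 0.273 and 2.68 ± 0.895 (SD, n = 3 lines each), and no test is given because the ratio was picked for this difference. The ratio of *Anxa1* to *S100a11* was 0.727, 0.656 and 0.680 against 1.41, 0.751 and 0.404, with sgMll3 lines on both sides of the sgp53 lines.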

How the data were processed

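RNA-seq libraries of 6 mouse liver tumor cell lines, 3 per genotype, were compared. Genotype and replicate came from the sample titles. The authors trimmed reads with Trimmomatic, used STAR for alignment to GRCm38 and HTSeq for counting, and deposited RPKM values, which use a single transcript length per gene. The table has 21065 rows, 209 of them without values, and 6 columns of other samples that were not used. The authors' table of their own DESeq2 1.8.2 comparison (mean normalized counts, fold changes and p-values) was not used.

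RPKM multiplied by length gave whole reads for 100% of values above 0 (tolerance 0.01 of a read), and 1 read at 2 kb was worth 0.0726 to 0.136 RPKM. Log2(RPKM + 1) values of the 11617 genes that reached an RPKM of 1 in 3 or more of the 6 libraries were fitted by genotype alone with limma 3.58.1 under R 4.3.3, using lmFit and eBayes (trended variance). P-values were adjusted by Benjamini-Hochberg over all of these genes. A fold change on this scale understates that of low genes. The script was tested on simulated data. The marker sum without *Apob* and *Hnf4a* was added after the data were seen. Alternatives changed the pseudocount, filter, scaling, moderation, a replicate block, reads in place of RPKM (limma voom), and each line left out. The members, gene lists and tests were chosen with earlier results of these data known. Named genes are all annexins, the targeted genes, 6 textbook partners and, from each partner list, the up to 3 genes with the lowest p, and marker genes and other genes named were chosen after their values were seen. Promoters came from RefSeq (GRCm38.p6), for 8 of the 10 annexins, and intervals cover the spread between lines only.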

Additional observations from a re-analysis of the deposited data

How the results depend on the processing

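The count of annexins other than *Anxa8* with an adjusted p under 0.05 was 0 under all 17 alternatives, as was the count of partner genes, while the count over all genes was 15 and ran from 0 to 7 when 1 line was left out and from 0 to 40 otherwise. It was 40 without a filter on low values, 6 with a pseudocount of 0.1, 4 with voom on recovered reads, and 0 with the replicate block or with sgMll3 replicates 2 and 3 as a single sample. With limma 6 calls were higher and 9 lower in the sgMll3 lines, against 8 and 8 with quantile normalization 7 and 7 with median-of-ratios scaling, and 4 and 0 with voom. The log2 fold change of *Anxa8* was between 3.10 and 3.50, which only describes the values that chose the family. That of *Anxa5* was between -1.15 and -0.71, with an unadjusted p under 0.05 in all 17 (limma or voom). Directions turned for 5 genes, none of them called. *Anxa3* was at 0.056 with sgMll3 replicates 2 and 3 as a single sample and between -0.85 and 0.26 when 1 line was left out, *S100a4* ran from -1.43 to 0.43, *Anxa9* from -0.58 to 0.10 and *Anxa13* from -0.56 to 3.43 when 1 line was left out, and *Cpne1* was at 0.012 with quantile normalization. The cause was not tested. Same-numbered lines deviated from their group means with correlations of 0.192, 0.399 and 0.0316, and differently numbered lines with -0.284 to 0.152. The lines come from different mice and the labels state no pairing, so the main fit used none. Whether lines of the same number share a batch was not tested. With the replicate block the annexins under an unadjusted p of 0.05 were *Anxa5* and *Anxa4*, beside 9.34% of all genes. *Anxa10*, at 0 to 15 reads, is beyond what this depth can compare.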

Other observations

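*Anxa9* and *Anxa13*, the annexins of the table outside the list of 10, were low in most lines. *Anxa9*, an annexin whose core has lost calcium-binding residues, was at 4.90, 4.62 and 4.50 RPKM in the sgp53 lines and 6.12, 4.2 and 1.75 RPKM in the sgMll3 lines, with a log2 fold change of -0.28 (95% confidence interval -1.20 to 0.64, adjusted p = 0.822 from limma). *Anxa13*, an annexin of intestinal and kidney epithelium, was at 4.66, 0.411 and 7.93 RPKM against 327, 0.296 and 5.11 RPKM. Its value of 327 RPKM was in sgMll3 replicate 1, the line with the highest hepatocyte and biliary markers, and the other 5 lines of both genotypes overlapped. The log2 fold change was 1.73 (95% confidence interval -2.95 to 6.40, adjusted p = 0.793 from limma) and -0.56 without that line.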
